A study of Mus musculus with 653 samples.

Results

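The genes described here are 10 liver serpins, taken by name from the 54195 genes of the raw count table: *Serpina1a*, *Serpina1b*, *Serpina1c*, *Serpina1d*, *Serpina1e*, *Serpina6*, *Serpinc1*, *Serpind1*, *Serpinf1* and *Serpinf2*. They were measured in 653 single cells of the mouse embryonic liver by Smart-seq2, a protocol that amplifies the cDNA of 1 sorted cell and adds no molecular identifiers. Embryos came from male Lgr5-EGFP-IRES-creERT2 mice, which express GFP from the *Lgr5* locus and were kept on C57BL/6, mated with MF1 females. Livers were taken at E10.5 or E13.5, and cells were sorted as bulk cells, that is Liv2+ CD31- CD45- cells, or as Lgr5-GFP+ cells of the same gate. There were 203 E10.5 bulk, 211 E10.5 Lgr5-GFP+, 159 E13.5 bulk and 80 E13.5 Lgr5-GFP+ cells. Cells came from 5 library pools. Which embryo or sorting day a cell came from is not in the labels, so every group counts as 1 sample and groups were set side by side without a test. Intervals are exact 95% intervals and cover counting error only. Reads per cell ranged from 463347 to 2279700, with group medians between 1092637 and 1260402.

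Serpins are a family of secreted and cellular proteins, most of which trap a target protease by offering it an exposed loop, the reactive-centre loop, as bait. Hepatocytes and their embryonic precursors, the hepatoblasts, release many of them into the blood, where they limit elastase activity, coagulation and fibrinolysis. A few members have lost protease inhibition and act as hormone carriers or signalling proteins. The *Serpina1* genes encode alpha-1-antitrypsin, the main inhibitor of neutrophil elastase, *Serpinc1* antithrombin, *Serpind1* heparin cofactor II and *Serpinf2* alpha-2-antiplasmin, the inhibitor of plasmin. *Serpina6* encodes corticosteroid-binding globulin and *Serpinf1* pigment epithelium-derived factor, and neither is known as a protease inhibitor.

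The mouse has several copies of *Serpina1*, and strains differ in the number of copies, so their reads have to be told apart with care. The 5 copies of the GRCm38 reference lie on the minus strand of chromosome 12 within 230820 bases: *Serpina1b* at chr12:103728156-103830373, *Serpina1d* inside the span of *Serpina1b* at chr12:103763594-103773592 with no shared exon, *Serpina1a* at chr12:103853589-103863562, *Serpina1c* at chr12:103894926-103904887 and *Serpina1e* at chr12:103946931-103958975. Each has 1239 coding bases, and pairs of copies are identical at 96.3% to 98.5% of them, with *Serpina1a* and *Serpina1c* the closest pair. A stretch that differs between the copies codes for the reactive-centre loop, and it is shown because it separates the genes whose counts follow. Below are coding bases 1102 to 1173 of each copy from GENCODE models on GRCm38, written on the coding strand, with the 19 positions at which any copy differs in capitals.
Serpina1a: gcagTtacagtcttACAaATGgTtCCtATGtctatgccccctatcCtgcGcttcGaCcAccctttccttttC
Serpina1b: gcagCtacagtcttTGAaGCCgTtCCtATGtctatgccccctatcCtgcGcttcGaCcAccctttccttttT
Serpina1c: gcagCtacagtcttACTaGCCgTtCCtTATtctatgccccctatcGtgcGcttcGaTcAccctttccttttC
Serpina1d: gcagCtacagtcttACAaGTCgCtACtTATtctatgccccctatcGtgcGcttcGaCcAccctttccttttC
Serpina1e: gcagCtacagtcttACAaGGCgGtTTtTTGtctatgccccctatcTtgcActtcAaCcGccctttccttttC
Codon 377, which is known to encode the residue after which the target protease cuts, reads ATG in *Serpina1a* and *Serpina1b*, TAT in *Serpina1c* and *Serpina1d*, and TTG in *Serpina1e*. Of all 86 positions in the coding sequence at which any copy differs, 19 thus lie in this window of 72 bases.

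The counts hold uniquely aligned reads only, and reads were 50 bases long. Of the 50-base windows on annotated transcripts, 42.4% were unique to *Serpina1a*, 70.5% to *Serpina1b*, 20.7% to *Serpina1c*, 49.1% to *Serpina1d* and 65.4% to *Serpina1e*. *Serpina1a* and *Serpina1c* shared 910 windows. A read from a shared window could not be counted, so the copies with few unique windows are counted least completely, and reads from MF1 alleles were assigned by their likeness to the C57BL/6 reference. *Serpina6* (chr12:103646630-103657212), *Serpinf1* (chr11:75409769-75422701), *Serpinf2* (chr11:75431732-75439591) and *Serpind1* (chr16:17331371-17343575) had no window in common with another gene. *Serpinc1* (chr1:160978585-161005863) had 66.4%, since 2942 of its 8546 exon bases are also exon bases of *Zbtb37* on the other strand.

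A short stretch before the start is also alike between the copies. The rest of their promoters was not compared base by base. RefSeq promoter sequences, 250 bases before to 50 after the start on GRCm38.p6, were found for 9 of the 10 genes, all but *Serpina6*. The letters TGTTTGC, which forkhead (FOXA) proteins are known to bind, were searched on both strands of the 250 bases before the start because these proteins are known regulators of liver genes. They were present in the 5 *Serpina1* promoters and in no other of the 9, against 4.3% of 32851 promoters searched over the same length. A stretch of 50 bases around them is given for the most abundant copy, *Serpina1b*, and for the copy that differs most from it, *Serpina1d*, on the strand of the genes, with the motif in capitals.
Serpina1b, chr12:103738216-103738265: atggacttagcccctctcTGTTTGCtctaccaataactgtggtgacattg
Serpina1d, chr12:103773650-103773699: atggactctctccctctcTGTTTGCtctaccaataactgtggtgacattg
*Serpina1d* differed from *Serpina1b* at 4 of 50 positions, *Serpina1c* and *Serpina1e* at 1 each and *Serpina1a* at 0. A further motif, TTGCNNAA of the C/EBP proteins, was present in *Serpina1b*, *Serpina1d* and *Serpina1e* and in 9.56% of all promoters. TATAAA and the HNF4 letters CAAAGTCCA were in none of the 9 and in 12.37% and 0.38% of all promoters. These matches describe letters, not binding.

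Afp-positive cells, defined by an *Afp* level of at least 100 RPM (reads per 1000000 reads on genes), are the cells in which most of these serpins were found. *Afp* encodes alpha-fetoprotein, the standard hepatoblast marker. There were 63 such cells of 653, namely 54 E10.5 Lgr5-GFP+, 6 E10.5 bulk, 2 E13.5 Lgr5-GFP+ and 1 E13.5 bulk cell. The lowest level inside the limit was 168 RPM and the highest outside was 49.6 RPM. All 8 genes of a fixed hepatoblast list, *Afp* among them, were highest in the Afp-positive cells, with a summed level of 16861 RPM (*Alb* 1463 RPM), against 302, 9.75 and 310 RPM in the classes described next. The 590 other cells were divided by reads of *Pdgfra*, a mesenchymal receptor, and *Gata1*, an erythroid and megakaryocytic factor. There were 155 cells with more than 10 reads of *Pdgfra* alone, 149 with more than 10 of *Gata1* alone, 2 with both and 284 with neither. Although all cells are labelled as hepatoblasts, erythroid markers summed to 6738 RPM in the Gata1-positive and mesenchymal markers to 5047 RPM in the Pdgfra-positive cells.

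In the summed Afp-positive cells, *Serpina6* was the most abundant of the 10 genes, followed by *Serpinf2* and *Serpinf1*, and 2 genes were listed at 0. Of the 7 genes above the filter of 1 RPM over both sides, all 7 were at least 2-fold higher in the Afp-positive than in the other cells, where 11% of 14573 tested genes were at least 2-fold higher and 37.7% at least 2-fold lower. *Serpina1c* was below the filter, at 8.92 RPM against 0.0623 RPM. The median log2 ratio of the 7 genes was 6.23, and that of all tested genes was -0.47. A gene that passes the filter through the side on which it is high has to differ, so the count describes these genes and no more. *Serpina1d* and *Serpind1* had no read in any of the 653 cells. So had 25903 of the 54195 genes, so the table shows only that both are listed at 0.

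**Figure D1:**
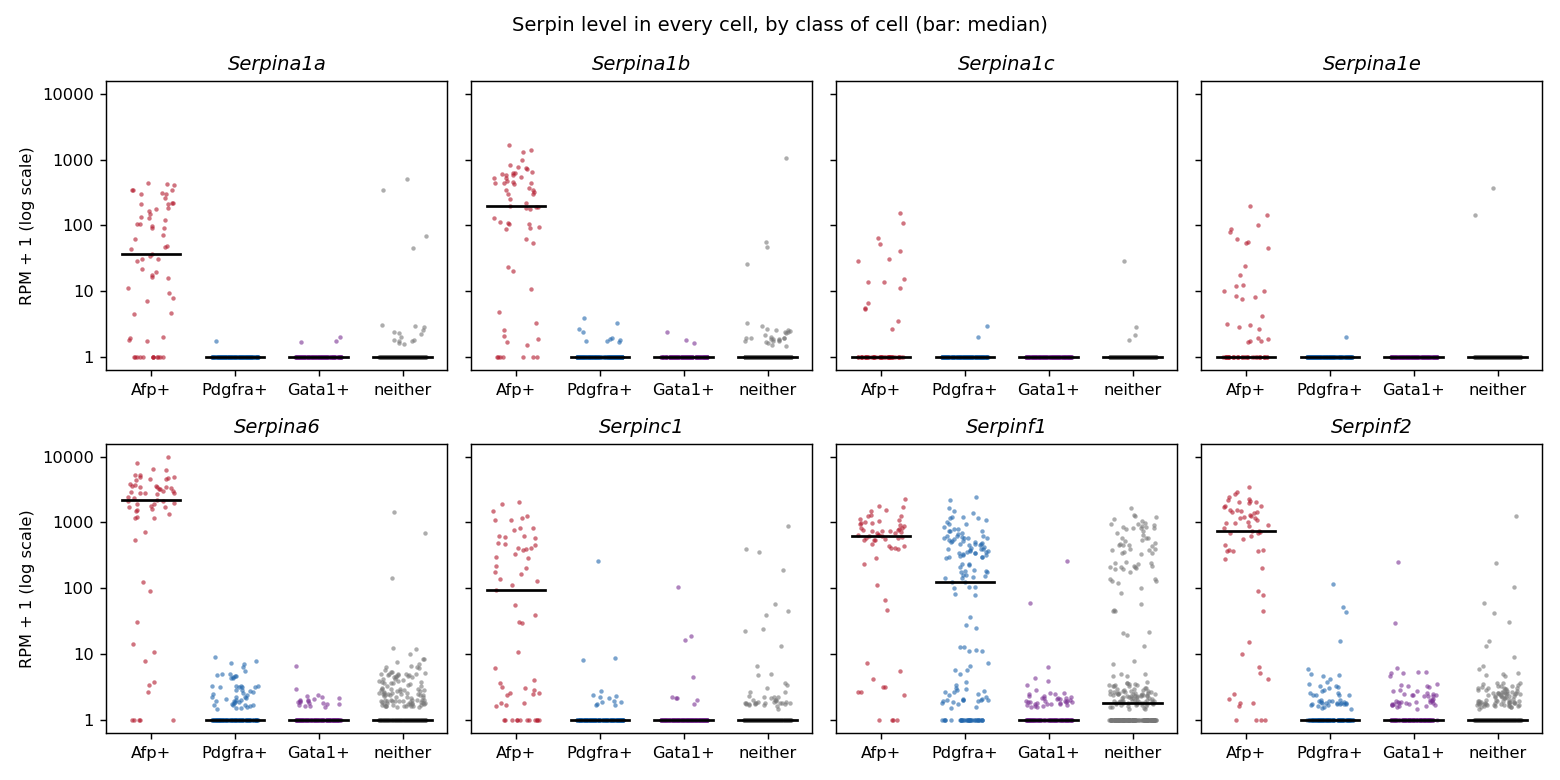
Each point is 1 cell, and the vertical axis gives the level of a serpin gene as RPM + 1 on a log scale. Columns are the 63 Afp-positive, 155 Pdgfra-positive, 149 Gata1-positive and 284 neither cells, and bars are medians. *Serpinf1* alone has many high cells outside the Afp-positive class, and *Serpina1c* and *Serpina1e* have medians of 0 RPM in every class.

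*Serpina6*, which carries glucocorticoids in the blood, was counted at 2501 RPM (2489.8 to 2512) in the Afp-positive cells. Levels in single cells had a median of 2209 RPM and ran from 0 to 9892 RPM. The cells fell mostly into a high range, since 54 of 63 (85.7%, interval 74.6 to 93.3) had more than 10 reads, the limit the study applied to *Lgr5*. In the other cells the level was 4.03 RPM (3.88 to 4.18), a log2 ratio of 9.28. Only 4 of 590 other cells (0.678%) had more than 10 reads, and the 2 classes thus overlapped in few cells. Thinned to 400000 reads a cell, the shares were 81.0% and 0.508%. Within 4 pools with at least 5 cells on both sides the log2 ratio lay between 7.02 and 14.36.

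The 4 *Serpina1* copies with reads were held unequally. *Serpina1b* had 335 RPM (331 to 339) in the Afp-positive cells and 1.5 RPM in the others, a log2 ratio of 7.80. *Serpina1a* had 100.4 RPM (98.2 to 103) and 1.45 RPM, a log2 ratio of 6.12. *Serpina1e* had 15.6 RPM (14.7 to 16.5) and 0.902 RPM, a log2 ratio of 4.11. *Serpina1b* was thus the main source of alpha-1-antitrypsin reads, with 72.8% of the 4 copies' reads, against 21.9% for *Serpina1a*, 3.38% for *Serpina1e* and 1.94% for *Serpina1c*. Per unique 50-base window, the shares of summed reads were 54.1%, 33.4%, 3.95% and 8.54%, so *Serpina1c* and *Serpina1e* changed places while the first 2 copies did not. The order of these 2 per window did not hold in every pool. In pool 5 *Serpina1b* was at 184 RPM over 1612 unique windows and *Serpina1a* at 99.6 RPM over 782. Per window, *Serpina1a* was thus the higher in that pool. In single cells *Serpina1b* ran from 0 through a median of 195 to 1673 RPM, and *Serpina1a* from 0 through 36.3 to 435 RPM.

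Cells differed in which copies they held. With more than 10 reads as the limit, 20 of the 63 cells held *Serpina1a* and *Serpina1b* only, 13 held *Serpina1b* only and 6 held *Serpina1a* only. A further 7 cells held all 4 copies and 6 held none. *Serpina1c* and *Serpina1e* passed the limit in few cells, 11 and 14, of which 7 were the same cells. Where *Serpina1a* and *Serpina1b* both passed it, in 35 cells, *Serpina1b* had more reads in 30 and *Serpina1a* in 5. The log2 ratio of *Serpina1b* to *Serpina1a* reads had a median of 1.05 in these cells and ran from -3.44 to 4.78. These reads were not divided by unique windows, of which *Serpina1b* has 1612 and *Serpina1a* 782. More reads of *Serpina1b* in a cell thus need not mean a higher level. Reads of *Serpina1c* were concentrated, with 36.3% in 1 cell and 80.0% in 5 cells, whereas the top 5 cells held 30.3% of *Serpina1b* and 24.2% of *Serpina6* reads.

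**Figure D2:**
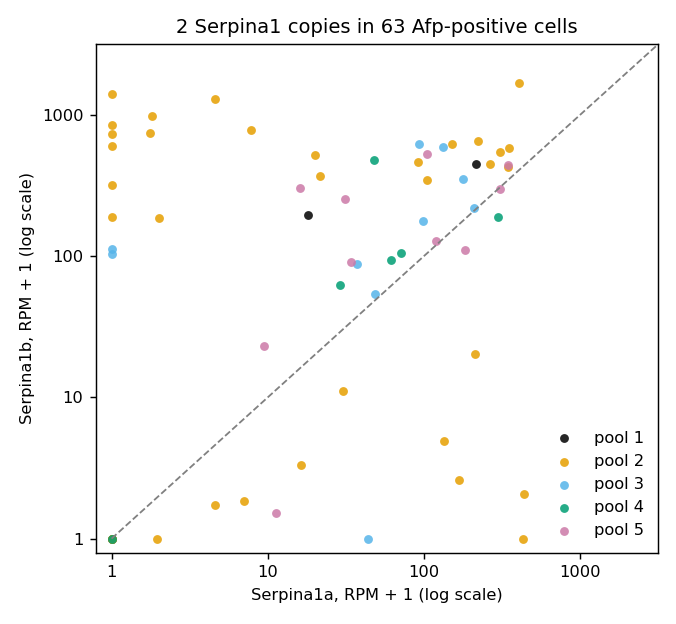
Each point is 1 of 63 Afp-positive cells, coloured by library pool, with *Serpina1a* on the horizontal and *Serpina1b* on the vertical axis, both as RPM + 1 on a log scale. The dashed line marks equal RPM, not corrected for the larger number of unique windows of *Serpina1b*. Of the 35 cells with more than 10 reads of both, 30 lie on the *Serpina1b* side, and points along either axis are cells with 1 of the copies at or near 0.

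The inhibitors of coagulation and fibrinolysis differed in their spread over cells. *Serpinf2*, which encodes the plasmin inhibitor, had 944 RPM (937 to 951) in the Afp-positive cells and 4.44 RPM (4.28 to 4.60) in the others, a log2 ratio of 7.73. In single Afp-positive cells it ran from 0 through a median of 743 to 3460.3 RPM. *Serpinc1*, which encodes antithrombin, had 322 RPM (318 to 326) and 4.28 RPM (4.13 to 4.44), a log2 ratio of 6.23. It was the more uneven of the pair. Single cells ran from 0 through a median of 92.0 to 2022 RPM, and 37 of 63 cells (58.7%, 45.6 to 71.0) had more than 10 reads, against 50 (79.4%, 67.3 to 88.5) for *Serpinf2*. The gap lay mostly in pool 2, where 15 of 34 cells passed for *Serpinc1* and 25 for *Serpinf2*. In pools 3, 4 and 5 the counts were 8 and 8 of 10, 5 and 6 of 6, and 8 and 9 of 10. The median of *Serpinc1* was 2.35 RPM in pool 2 and 136 to 274 RPM in pools 3, 4 and 5. After thinning, 55.6% and 77.8% of Afp-positive cells and 1.53% and 1.86% of other cells remained positive for *Serpinc1* and *Serpinf2*. The third inhibitor, *Serpind1*, was listed at 0.

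*Serpinf1*, the angiogenesis inhibitor PEDF, was the exception among the 8 genes with reads in that most of its reads lay outside the Afp-positive cells. It had 652 RPM (646 to 657) in the Afp-positive and 139.7 RPM (138.8 to 140.5) in the other cells, a log2 ratio of 2.22, and only 34.0% of its 149372 reads were in the Afp-positive cells. The share in these cells was 65.5% to 98.6% for the other 7 genes. Within the other cells, the level was 308 RPM (306 to 311) in the Pdgfra-positive, 115 RPM (113 to 116) in the neither and 2.29 RPM (2.06 to 2.53) in the Gata1-positive class. More than 10 reads were found in 93 of 155 (60.0%), 68 of 284 (23.9%) and 2 of 149 cells (1.34%). Pdgfra-positive cells held 261 to 392 RPM in each of the 5 pools. The neighbouring gene *Serpinf2*, 9030 bases away on the same strand, had 1.65 RPM in the Pdgfra-positive and 3.02 RPM in the Gata1-positive cells.

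Among the 3 genes above the filter in the comparison of Pdgfra-positive with Gata1-positive cells, *Serpinf1* alone was at least 2-fold higher, by a log2 ratio of 7.08 (5.39 to 10.56 over 5 pools). In that comparison 35.8% of 13823 genes were at least 2-fold higher and 17.5% at least 2-fold lower. *Serpinc1* differed by a log2 ratio of -0.07 and *Serpinf2* by -0.87, and the *Serpinf2* ratio ran from -6.51 to 2.69 over pools. Levels of *Serpinf1* in Pdgfra-positive cells had a median of 10.1 RPM in 80 E10.5 bulk cells and of 207 RPM in 67 E10.5 Lgr5-GFP+ cells. Both ranges began at 0 and reached 2171 and 2432 RPM, so the ranges of the 2 sorts overlapped. More than 10 reads were found in 52.5% and 71.6% of these cells. The 7 E13.5 Lgr5-GFP+ cells of this class had 0 to 583 RPM.

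Between genes, levels have to be compared per length. Per kilobase of exon, the order in the Afp-positive cells was *Serpina6* (1420.1 RPM per kb), *Serpinf2* (406), *Serpinf1* (276), *Serpina1b* (139), *Serpina1a* (54.8), *Serpinc1* (37.7), *Serpina1e* (9.62) and *Serpina1c* (6.55). Per unique 50-base window in place of exon length, the order differed only in that *Serpina1c* (32.8) came before *Serpina1e* (15.2). By the longest transcript, *Serpinc1* (64.9) and *Serpina1a* (63.5) changed places. *Serpinc1* has 8 annotated transcripts with 8546 exon bases in all, and the longest has 4970. Which of them these cells make was not measured, so the place of *Serpinc1* in the order is uncertain. In each of the 4 pools with at least 5 Afp-positive cells the same order per kilobase of exon held, but for *Serpina1e* and *Serpina1c*, which kept it in 3. The ranges over these pools did not overlap between *Serpina6* (1355 to 1614 RPM per kb) and *Serpinf2* (276 to 691), but they did between *Serpinf2* and *Serpinf1* (245 to 296). They also overlapped between *Serpina1a* and *Serpinc1* and between *Serpina1e* and *Serpina1c*.

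**Figure D3:**
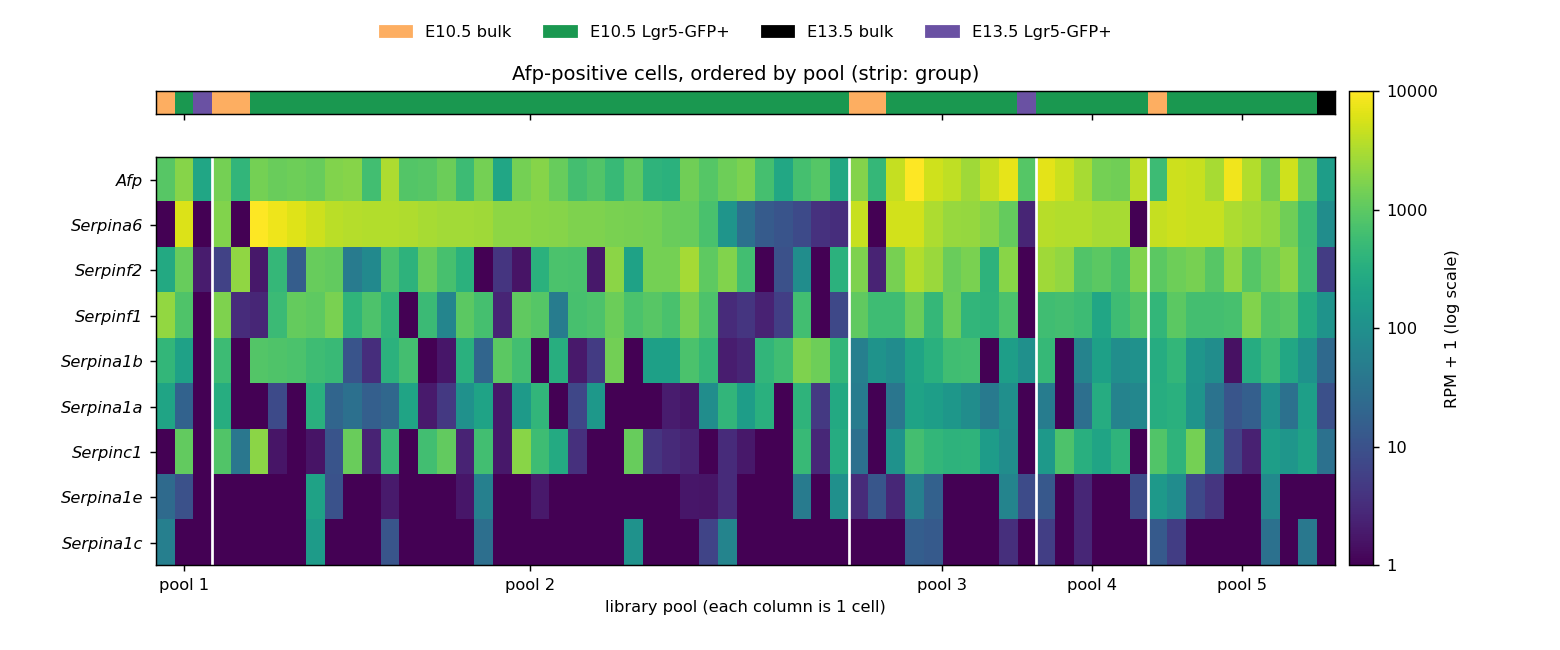
Columns are the 63 Afp-positive cells, ordered by pool, by group and then by falling *Serpina6* level, and rows are *Afp* and the 8 serpin genes with reads. Colour gives RPM + 1 on a log scale, and the strip above gives the group. *Serpina6* passes 10 reads in 54 of the 63 columns, *Serpina1c* and *Serpina1e* in 11 and 14, and summed *Afp* and *Serpinf2* are lower in the 34 cells of pool 2 than in pools 3, 4 and 5.

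Library pools differed within the Afp-positive cells, and 34 of the 63 cells were of pool 2. *Afp* was at 1065 RPM in pool 2 and between 3729 and 4347 RPM in pools 3, 4 and 5. *Serpinf2* was also lower in pool 2, with 642 RPM against 1299 to 1605 RPM. *Serpina1b* was higher in pool 2, with 439.5 RPM against 173 to 217 RPM. *Serpina6* differed less, with 2386 RPM against 2584 to 2842 RPM. The median number of genes detected per cell was 4853 in pool 2 and 6749 to 7290 in pools 3, 4 and 5, and its part in these differences was not tested. Pools and embryos cannot be told apart here.

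A typical Afp-positive cell held several of these genes at once. Of the 7 genes other than *Serpinf1*, 16 of the 63 cells had more than 10 reads of 3, 11 of 4, 15 of 5, 8 of 6 and 4 of all 7. There were 6 cells with 2, 2 with 1 and 1 with 0. *Serpina6* and *Serpinf1* passed the limit together in 47 cells, and *Serpinf1* and *Serpinf2* in 45. The Pearson r of log2(RPM + 1) over the 63 cells was 0.50 for *Serpina6* and *Serpinf1*, 0.44 for *Serpinf1* and *Serpinf2*, and 0.42 for *Serpina6* and *Serpinc1*. Between *Serpina1a* and *Serpina1b* r was 0.17, and the highest r of any pair was 0.52, for *Serpina1c* and *Serpina1e*. These values describe cells that share pools and differ in the number of genes detected, which itself had an r of 0.46 with *Serpinf2* and 0.31 with *Serpina6*.

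By group, all 8 genes were highest in E10.5 Lgr5-GFP+ cells, and at E10.5 most reads of 7 of them, all but *Serpinf1*, lay in Afp-positive cells. *Serpina6* was at 56.1 RPM in E10.5 bulk, 704 RPM in E10.5 Lgr5-GFP+, 0.778 RPM in E13.5 bulk and 1.44 RPM in E13.5 Lgr5-GFP+ cells. In E10.5 bulk cells 14078 of its 14205 reads (99.1%) came from 6 Afp-positive cells, and 49.0% from 1 cell. In E10.5 Lgr5-GFP+ cells 98.6% came from 54 cells. At E13.5 the reads were few and lay elsewhere for several genes. In E13.5 Lgr5-GFP+ cells 1.48% of *Serpina6* reads, 0 of 645 *Serpinc1* reads and 1 of 557 *Serpinf2* reads were in Afp-positive cells, and in E13.5 bulk cells 11.2% of *Serpinc1* and 0.97% of *Serpinf2* reads were. In summed reads fewer cells of a type and less RNA per cell cannot be told apart. The share of Afp-positive cells was 2.96% (1.09 to 6.32) in E10.5 bulk, 25.6% (19.8 to 32.0) in E10.5 Lgr5-GFP+, 0.629% (0.0159 to 3.45) in E13.5 bulk and 2.50% (0.304 to 8.74) in E13.5 Lgr5-GFP+ cells. In E10.5 Lgr5-GFP+ cells this share differed between pools, since 32 of the 54 cells were among the 47 cells of pool 2, and without pool 2 it was 13.4% (22 of 164).

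**Figure D4:**
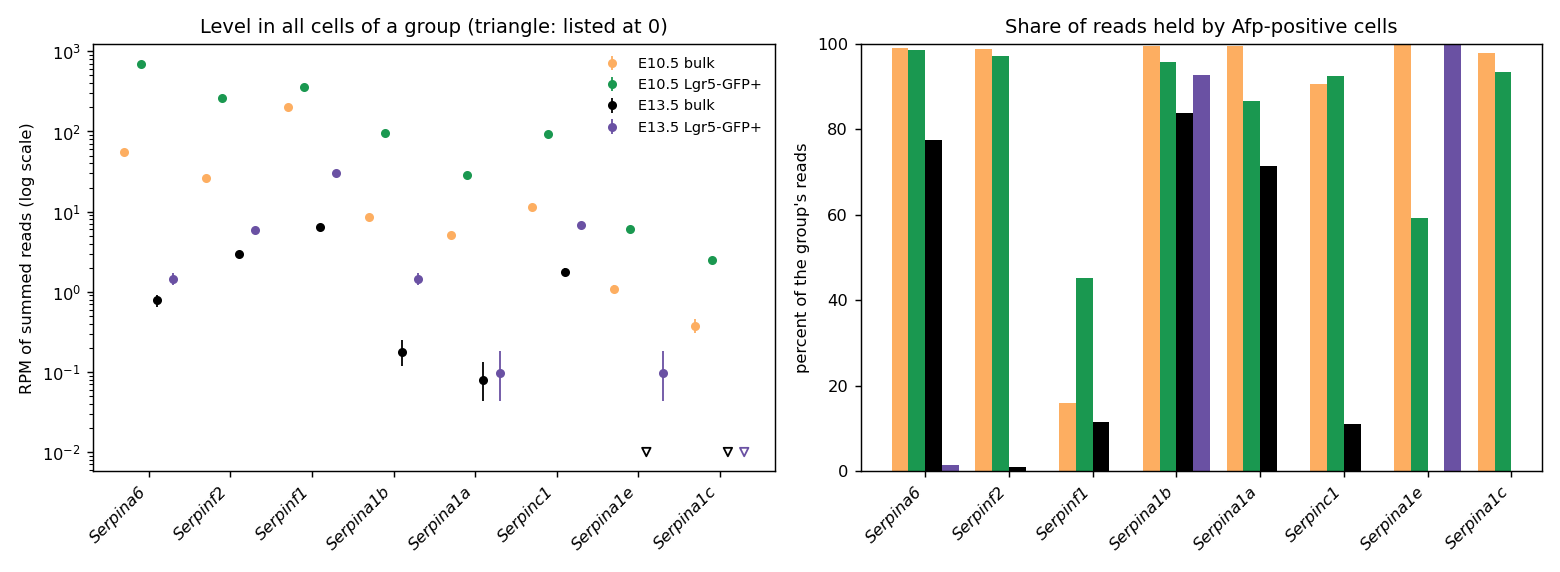
Left, the level of each serpin gene in the summed cells of the 4 groups, in RPM on a log scale with exact 95% Poisson intervals, triangles at the foot marking genes listed at 0 in a group. Right, the percent of the reads of a gene in each group that lay in Afp-positive cells. E10.5 Lgr5-GFP+ cells are highest for all 8 genes, and only for *Serpinf1* do Afp-positive cells hold less than 50% of the reads of both E10.5 groups.

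The sort for Lgr5-GFP enriched for these genes at E10.5. Of 8 genes above the filter, 7 were at least 2-fold higher in Lgr5-GFP+ than in bulk cells, against 14.2% of 14284 tested genes. None was at least 2-fold lower, against 13.2%. A gene that passes the filter only through its Lgr5-GFP+ side has to come out higher, so the count describes these genes and no more. The log2 ratios were 3.65 for *Serpina6*, 3.49 for *Serpina1b*, 3.34 for *Serpinf2*, 3.03 for *Serpinc1*, 2.72 for *Serpina1c*, 2.49 for *Serpina1a* and 2.47 for *Serpina1e*. *Serpinf1* was within 2-fold, at 0.82 (360.0 RPM against 204 RPM). The ratio was positive in all 5 pools for *Serpina6* (1.81 to 12.35), *Serpinf2* (1.70 to 9.48) and *Serpinc1* (0.57 to 9.54). For the 4 *Serpina1* copies the lowest pool value was negative, for example -1.62 for *Serpina1b*. The comparison was repeated without the Afp-positive cells and the 3 other cells with several of these genes described further on. This choice was made after the data had been seen. The 3 cells were picked by reads of these same genes, so leaving them out has to lower the Lgr5-GFP+ side of the genes they hold. The log2 ratio was then 3.14 for *Serpinc1*, 2.76 for *Serpinf2* and 0.59 for *Serpinf1*, and the others were below the filter. The *Serpinc1* value rested largely on 1 cell, which held 1162 of the 1833 reads of E10.5 Lgr5-GFP+ cells outside the Afp-positive class. No share of all genes is given for these cells, so the values describe single genes and no more.

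Inside the Afp-positive class at E10.5, the sorts were closer. In 54 Lgr5-GFP+ against 6 bulk cells, *Serpina6* was at 2724.5 against 1715 RPM, with medians of 2556 and 887 RPM and a log2 ratio of 0.67. *Serpinf1* was at 639 against 1009.5 RPM, a log2 ratio of -0.66, and *Serpinc1* at 339 against 319.6 RPM, a log2 ratio of 0.08. For both genes the cells of the sorts overlapped, from near 0 upwards. Of 8 genes, 0 were at least 2-fold higher, against 48.5% of 11818 genes. *Serpina1e* was at least 2-fold lower, by -1.25 (14.0 against 33.4 RPM), as were 17.2% of all genes, and 1 cell held 81.8% of its E10.5 bulk reads. Without pool 5 the *Serpina1e* ratio was 0.91. With 6 cells on 1 side, no pool gave a value on both sides.

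Reads of *Lgr5* itself split the 54 E10.5 Lgr5-GFP+ Afp-positive cells into 23 with more than 10 reads and 31 without. None of 8 genes was at least 2-fold apart, against 25.3% of 11645 genes higher and 23.7% lower in the cells with *Lgr5* reads. *Serpina6* was at 2170.4 RPM with and 3103 RPM without *Lgr5* reads, a log2 ratio of -0.52, and *Serpinf1* at 444 and 771 RPM, a log2 ratio of -0.80. *Serpinf2* was at 1112 and 940.2 RPM, a log2 ratio of 0.24, and *Serpina1b* at 273 and 417 RPM, a log2 ratio of -0.61. Only pool 2 had 5 cells on both sides, and there the ratios were -1.55, -1.28, -0.44 and -0.37 in the same order, so *Serpinf2* changed direction. In pool 2 *Serpina6*, *Serpinf1* and *Serpinc1* (-1.04) were thus more than 2-fold lower in the cells with *Lgr5* reads.

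In the sorted E13.5 cells all genes that could be compared were lower. The paper proposes that E13.5 cells on the hepatocyte path no longer carry the Liv2 epitope used in the sort and so were not sequenced. This was not tested here, and the values below compare sorted cells, not whole livers. In bulk cells, 6 of 6 genes above the filter were at least 2-fold lower at E13.5 than at E10.5, against 35.9% of 13694 genes lower and 13.7% higher. The log2 ratios ran from -6.17 for *Serpina6* to -2.69 for *Serpinc1*. Single pools reached 0.12 for *Serpina6* and 1.87 for *Serpinf2*, so the direction of these genes was not the same in every pool. In Lgr5-GFP+ cells, 8 of 8 were at least 2-fold lower, against 27.8% of 14628 genes lower and 22.3% higher. A gene that passes the filter only through its E10.5 side has to come out lower. The counts of both sorts thus describe these genes and no more. *Serpina6* was lower by -8.93 (-10.65 to -7.88 over 5 pools), *Serpina1a* by -8.24, *Serpina1b* by -6.03, *Serpinf2* by -5.48, *Serpinc1* by -3.76, *Serpinf1* by -3.55 and *Serpina1e* by -5.97. Single pools came as near to 0 as -0.92 for *Serpinf1*, so the size of its difference varied widely between pools. For *Serpina1a*, *Serpina1c* and *Serpina1e* the highest pool values were -0.78, -0.13 and 0.14. *Serpina1a* and *Serpina1e* had 9 reads each at E13.5 and *Serpina1c* 0, and a pool side under 3 reads was set to 3. These 3 pool values are thus bounds, from which no difference between pools is read. The group value of *Serpina1c*, -6.27, is likewise a bound at 3 reads.

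The Afp-positive cells of both stages were then left out, a choice made after the data had been seen. In E13.5 against E10.5 bulk cells *Serpinf1* stayed lower, at -4.95, *Serpinf2* was higher, at 3.07, and *Serpinc1* was at 0.53. The *Serpinf2* value rested on 2 E13.5 bulk cells with more than 10 reads, and 1 cell held 79.2% of the group's 518 reads. In Lgr5-GFP+ cells *Serpina1a*, *Serpina1b*, *Serpina1e*, *Serpina6* and *Serpinf1* stayed at least 2-fold lower without Afp-positive cells. *Serpinc1* (-0.43) and *Serpinf2* (-0.75) came within 2-fold. Without the same 3 other cells as well, all E10.5 Lgr5-GFP+ cells, *Serpinf1* alone was at least 2-fold lower (-3.08), *Serpinf2* was higher (1.36), *Serpina6* was at 0.12 and the *Serpina1* copies were below the filter. These 3 cells were picked by reads of the genes themselves and lie on the E10.5 side only. Leaving them out thus has to raise the ratios of the genes they hold. No share of all genes is given for these reduced sets of cells, so the values describe single genes and no more. *Serpinf1* was also lower within the neither class. It was at 142.7 RPM in 80 E10.5 bulk and 11.8 RPM in 52 E13.5 bulk cells, and at 211 RPM in 88 E10.5 and 25.6 RPM in 64 E13.5 Lgr5-GFP+ cells. In the Gata1-positive class, where it was low at both stages, it was at 2.01 RPM in E10.5 bulk and 2.56 RPM in E13.5 bulk cells.

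The 3 E13.5 Afp-positive cells were too few for a comparison of stages within the class, and they differed. The first, an Lgr5-GFP+ cell of pool 1, had 224 *Afp* reads, 0 *Alb* reads and 1 read of the 10 genes, on *Serpinf2*. The second, an Lgr5-GFP+ cell of pool 3, had 1093 *Afp*, 827 *Alb*, 127 *Serpina1b*, 9 *Serpina1e* and 2 *Serpina6* reads. The third, a bulk cell of pool 5, had 199 *Afp*, 107 *Serpina6*, 131 *Serpinf1*, 35 *Serpinc1* and 26 *Serpina1b* reads beside 528 *Gata1* reads. *Serpina6* thus lay between 0 and 90.4 RPM in these cells, below the median of 2556 RPM of the 54 E10.5 Lgr5-GFP+ cells but within their range.

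Between the E13.5 sorts, 3 of 4 genes above the filter were at least 2-fold higher in Lgr5-GFP+ cells, a share to be read beside 36.6% of 13378 genes higher and 21.9% lower. *Serpinf1* was at 30.7 against 6.45 RPM, a log2 ratio of 2.25, *Serpinc1* at 6.87 against 1.77 RPM, 1.96, and *Serpinf2* at 5.93 against 2.92 RPM, 1.02. These levels rested on single cells, since 87.4% of *Serpinc1* and 57.3% of *Serpinf2* reads of the Lgr5-GFP+ group lay in 1 cell each. Without pool 3 the *Serpinc1* ratio was -1.36 and the *Serpinf2* ratio -0.10. *Serpina6* was within 2-fold, at 1.44 against 0.778 RPM.

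Among the 590 other cells, 3 stood apart with more than 10 reads of 3 or more of the 7 genes other than *Serpinf1*. All 3 were E10.5 Lgr5-GFP+ cells of the neither class. One had 1412 RPM of *Serpina6*, 1261 of *Serpinf2*, 377 of *Serpina1e* and 342 of *Serpina1a*, with 4 *Afp* and 8 *Alb* reads. Another had 1042 RPM of *Serpina1b*, 684 of *Serpina6* and 6734 of *Alb*, with 2 *Afp* reads. In the last, *Serpina1e* was at 141 RPM and *Serpina6* at 0, with 22 *Afp* reads. These 3 cells held 80.8% of the *Serpina6*, 92.4% of the *Serpina1b* and 99.8% of the *Serpina1e* reads of all other cells, and without them the log2 ratios of Afp-positive to other cells were 11.65, 11.50 and 11.83. The cells were picked by reads of these genes, so leaving them out has to raise these ratios. They held 636 of the 637 *Serpina1e* reads, so 11.83 is a bound at 3 reads.

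A further 31 other cells had more than 10 reads of exactly 1 of these genes. In 15 cells it was *Serpinc1*, with 11 to 1162 reads, and in 12 *Serpinf2*, with 14 to 410 reads. *Serpina6* was that gene in 2 cells and *Serpina1a* and *Serpina1b* in 1 each. *Afp* had at most 5 reads and *Alb* at most 5 in any of these 31 cells. *Zbtb37*, which overlaps *Serpinc1*, had reads in 4 of the 15 *Serpinc1* cells, with more than 10 in 1 (120 reads).

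The remaining 556 other cells had few reads. The 7 genes had 2.40 reads per cell in 324 cells that share an i7 or i5 index with an Afp-positive cell of their pool and 0.431 in 232 cells that share neither. For *Afp* the values were 1.10 and 0.362, and 83 of the 84 *Afp* reads of the cells without a shared index were in 4 cells of pool 4. The serpin reads per cell were higher in cells with a shared index in all 5 pools, 4.70 against 0.667 in pool 2. In ratio to *Afp* reads, *Serpina6* was at 1.13 in Afp-positive and 0.948 in these low cells, *Serpina1b* at 0.151 and 0.114, and *Serpinf2* at 0.425 and 0.677. *Serpinf1*, with 0.294 and 197, was again the exception. The part of shared indexes in these low reads was not tested beyond these values, and no expression is read from them.

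Other serpins were given as a fixed list of 27, of which 22 had reads. Of 14 above the filter, 2 were at least 2-fold higher in the Afp-positive cells and 11 lower, beside 11% and 37.7% of all tested genes, with a median log2 ratio of -3.70 against -0.47 for all genes. *Serpina10*, which encodes the protein Z-dependent inhibitor of factor Xa, was at 63.3 RPM in Afp-positive and 0.0311 RPM in other cells. *Serping1*, the C1 inhibitor, was at 54.0 against 25.1 RPM. Among the classes, however, *Serping1* was highest in the Pdgfra-positive cells, at 58.4 RPM, and was at 0.0884 RPM in the Gata1-positive cells. *Serpinh1*, the collagen chaperone HSP47, and *Serpine2*, protease nexin 1, were also highest in the Pdgfra-positive cells, at 324 and 279 RPM. *Serpina3k* and *Serpina7*, both liver serpins of the adult, were listed at 0.

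Of 15 target proteases and partners, 11 passed the filter, and 6 were at least 2-fold higher and 5 lower in the Afp-positive cells (median log2 ratio 3.31), beside 11% and 37.7% of all tested genes. The higher genes were *F2*, *F10*, *F12*, *Plg*, *Proc* and *Hc*, the last of which encodes complement C5, and the lower were *Elane*, *Ctsg*, *Prtn3*, *Plat* and *Plau*. *F2*, prothrombin, the target of antithrombin, was at 152 RPM against 3.20 RPM in other cells, and *Plg*, plasminogen, whose active form alpha-2-antiplasmin inhibits, at 96.0 against 0.525 RPM. *Elane*, neutrophil elastase, was at 85.2 RPM in the neither class and at 0.0129 RPM in the Afp-positive cells.

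Of 12 liver transcription factors, 10 passed the filter, and 8 were at least 2-fold higher and 0 lower in the Afp-positive cells (median log2 ratio 3.94), beside 11% and 37.7% of all tested genes. *Hnf4a* was at 154 RPM against 0.310 RPM, *Foxa3* at 142 against 0.195 RPM and *Foxa2* at 121 against 2.08 RPM. Of 5 genes of corticosteroid signalling, 3 passed the filter, and 0 were at least 2-fold higher and 2 lower, which with 37.7% of all genes lower is no result about the list. The glucocorticoid receptor *Nr3c1* was at 46.6 RPM in Afp-positive and 74.3 RPM in other cells, and *Tat* and *Hsd11b1* were listed at 0.

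Genes most like each serpin were sought over the 63 Afp-positive cells among 4949 genes with more than 10 reads in at least 25% of these cells, by Pearson r of log2(RPM + 1). For *Serpina6* they were *Apom* (0.72), *Apoa1* (0.69) and *Rbp4* (0.63), which encode plasma carriers of lipid and retinol. For *Serpinf1* they were *Ciao2b* (0.68), *Fkbp11* (0.59) and *Srsf10* (0.56), and for *Serpinf2* *Gnl3* (0.61), *Hhex* (0.55) and *Odc1* (0.53). For *Serpinc1* they were *Cdc42se1*, *Tmem37* and *Spc24* (0.52 to 0.54), for *Serpina1a* *Cnih1*, *Hmga1* and *Ebna1bp2* (0.52 to 0.58) and for *Serpina1b* *Degs1*, *BC004004* and *Txndc17* (0.48 to 0.54). For *Serpina1c* they were *Slc25a15*, *Arl1* and *Alg14* (0.45 to 0.46) and for *Serpina1e* *Atp6v0c-ps2*, *Tpgs1* and *Tle1* (each 0.49). The median r over all compared genes lay between 0.05 and 0.19. Cells share pools, and the mean of within-pool values kept 2 of the 24 genes, so the order of likeness is a description of these cells.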

How the data were processed

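RNA of 653 single cells was sequenced by the authors as single-end reads of 50 bases. According to the submitters' processing notes and the methods, reads were aligned to GRCm38.p6 with STAR 2.6.0c and uniquely aligned reads were counted per gene with featureCounts of Subread 1.6.2. The deposited table holds these raw counts for the cells that passed the authors' quality filter, whose limit on genes detected differed between sorts, with 463347 to 2279700 reads per cell. Cells are not replicates and each group is 1 sample, so no p-value was computed. The authors' batch-corrected table of selected genes (Scanpy 1.3.3 is named in the notes) was not used, and 0 columns of the count table were left unused.

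Of 54195 gene identifiers, 54042 were named with the GENCODE annotation of GRCm38. Reads were summed per group or class and divided by reads on all genes (RPM). Sides under 3 reads were set to 3, genes under 1 RPM over both sides were left out of comparisons, and a gene was called at a 2-fold difference. Cells were Afp-positive at 100 RPM of *Afp* or more and positive for a gene with more than 10 reads. Pools gave values from 5 cells on each side. Intervals are exact Poisson and Clopper-Pearson (95%). Unique 50-base windows were counted on transcripts only, since a genome sequence was not used here. Named genes were the 10 serpins, the 3 genes most like each by Pearson r, fixed lists described by counts, and the genes that define classes. Some genes of the lists are not reported here by name. *Zbtb37* was added after its values were seen. Members and lists were chosen with earlier results of these data known. No doublet caller was run. Scripts (Python 3.11.15, numpy 2.4.6, pandas 2.3.3, scipy 1.17.1) were tested on simulated data. Alternatives were size factors, means over cells, no filter, thinning, leaving out pools, and other limits.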

Additional observations from a re-analysis of the deposited data

How the results depend on the processing

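Of 188 alternative values of 19 counts, 155 stayed within 1.5 times of the value reported and 33 moved further. Of 571 alternative log2 ratios of single genes, 353 stayed within the spread between pools, 20 moved by more, 190 had no spread between pools to be measured against and 8 reversed. In Afp-positive against other cells, 7 genes were higher under size factors, means over cells, thinning and every limit of *Afp*, and 8 with no filter or without some pools (range 7 to 8), with 0 lower throughout. In the other stage and sort comparisons, leaving out single pools gave 6 to 6 genes lower in E13.5 bulk, 7 to 8 lower in E13.5 Lgr5-GFP+ and 5 to 8 higher in E10.5 Lgr5-GFP+ cells. Size factors moved the median of all genes by at most 0.18 (log2), in Afp-positive against other cells by -0.18.

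For E13.5 Lgr5-GFP+ against bulk, 5 genes were higher with no filter, and leaving out pools gave 1 to 3 higher and 0 to 1 lower. Without single pools the ratio ran from -1.36 (pool 3) to 2.99 (pool 5) for *Serpinc1* and from -0.10 (pool 3) to 3.38 (pool 5) for *Serpinf2*. For Lgr5-GFP+ against bulk in E10.5 Afp-positive cells, 1 gene was higher at more than 10 *Afp* reads or at 10 RPM, 2 at 1000 RPM, and leaving out pools gave 0 to 1. The number lower was 0 after thinning, at more than 10 *Afp* reads or at 10 RPM, 2 at 1000 RPM, and 0 to 2 without single pools. The *Serpina1e* ratio there ran from -1.99 (without pool 2) to 0.91 (without pool 5) and was 3.71 at 1000 RPM. For *Lgr5* reads, 2 genes were lower at 1000 RPM. For Pdgfra-positive against Gata1-positive cells, 3 genes were higher with no filter, 2 after thinning and 2 at 1000 RPM, and 1 was lower with size factors, and leaving out pools gave 1 to 2 higher and 0 to 1 lower. The cause was not tested. Without Afp-positive cells, a choice made after seeing the data, *Serpinf2* was higher (3.07) and *Serpinf1* lower in E13.5 bulk cells. *Serpinc1* was within 2-fold there (0.53). Without the 3 high other cells as well, *Serpinf2* was higher (1.36) and *Serpinf1* lower in E13.5 Lgr5-GFP+ cells. *Serpina6* was within 2-fold there (0.12). *Serpinc1* and *Serpinf2* were higher in E10.5 Lgr5-GFP+ than bulk cells without these cells. No share of all genes is given for these sets of cells. Of the 24 most alike genes, Spearman rho kept 7, a pseudocount of 10 kept 13 and within-pool means 2. The number of genes positive in over 50% of Afp-positive cells was 6, and 5 with more than 50 reads, and 6 of 8 genes kept their rank by either other length. Windows unique in the genome were not run. No paired analysis was possible because replicate numbers only name cells, while ratios within each library pool are given as ranges.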
